A study of Rattus norvegicus with 52 samples.

Results

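Luminal cells of the rat mammary gland were compared by the surface marks used to sort them, in wild-type (WT) animals. Of the 52 samples of the series, 6 entered the comparison, and all 6 were RNA-seq libraries of Cdkn1b+/+ ACI females aged 9 weeks. Members were taken by their labels. The 4 libraries labelled luminal progenitor (LP) were of Cd24+ Cd29LOW PNA+ cells (2 libraries) and Cd24+ Cd29LOW Cd49b+ cells (2 libraries), and the 2 libraries labelled mature luminal were of Cd24+ Cd29LOW Cd49b- PNA- cells. ACI is an inbred rat strain that develops mammary tumors under estrogen. The WT females were virgin littermates of Cdkn1b-/- rats from heterozygous crosses, and the series states that the em1 (DEL-32) and em4 (DEL-65) lines, 2 deletion alleles of the gene for the CDK inhibitor p27, contributed equally to both genotypes. The alleles were made in Sprague-Dawley zygotes and bred onto ACI. Glands for sorting came from intercrosses at an early and at a late backcross generation, so the ACI background was incomplete in at least part of the rats, and the labels do not give the generation behind a library. The labels do not say how many rats went into a library, nor whether libraries with the same number came from the same rat. No WT group carried a treatment. WT basal libraries (Cd24+ Cd29HIGH, 2 libraries) and the Cdkn1b-/- libraries of the same populations (4 labelled LP and 2 labelled mature luminal) of the same age serve as references below.

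The mammary duct has an inner luminal and an outer basal, myoepithelial layer. Mature hormone-sensing luminal cells express the estrogen and progesterone receptors with the pioneer factor Foxa1 and pass the hormonal signal to their neighbors through secreted ligands. Luminal progenitors lack most of these receptors, express Elf5 and Kit, and give rise to the alveolar cells that secrete milk under prolactin and Stat5. Cd49b is the integrin alpha 2 chain, and peanut agglutinin (PNA) is a lectin that binds the core 1 O-glycan, a galactose linked to N-acetylgalactosamine, where no sialic acid covers it.

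The 4 PNA+ and Cd49b+ libraries held between 22619330 and 30499866 gene counts and the Cd49b- PNA- libraries 21545344 and 25327714. Reads that had not been assigned to a gene were 54.3% to 59.2% of the total in the first group and 64.3% to 70.9% in the second, and the ranges did not overlap. Among them, reads outside annotated genes were 9.87% to 13.4% of the total in the first group and 16.2% to 17.4% in the second. Reads without a unique alignment were 40.4% to 46.2% and 47.0% to 52.2%. The part of these differences in the results was not tested. Levels are given as CPM, gene counts over the library size scaled by TMM (trimmed mean of M-values), for libraries 1 and 2 of a population in that order. A call is an adjusted p under 0.05 in edgeR's quasi-likelihood test. Libraries with the same number deviated together. The difference between number 1 and number 2 correlated over genes between the 3 WT luminal populations, with Pearson's r from 0.66 to 0.79 (genes are not independent replicates). The test was therefore repeated with the number as a block, and its adjusted p, or for a list its counts of calls, stands beside each result whose call it changes.

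Of 12809 genes tested, 1406 were called, which is 11.0% of them. Higher levels in the PNA+ and Cd49b+ libraries were called for 641 genes (5.00%) and lower levels for 765 (5.97%). The split depended on the scaling, the filter and the libraries fitted. It was 520 higher and 981 lower with relative log expression size factors, 1140 and 560 with library size alone, and 3557 and 486 when the libraries were scaled to the summed counts of the luminal keratins Krt8, Krt18 and Krt19. With at least 10 counts required in each compared library it was 370 and 224, in a fit of the 6 compared libraries 1114 and 943, and in a fit of the 8 WT libraries 1018 and 571. With the replicate block 4406 genes were called (34.4%), and they included all 1406. The calls also rested on single libraries. Without the second Cd49b+, the second PNA+, or either Cd49b- PNA- library no gene was called, although between 2747 and 3225 had an unadjusted p under 0.05, and without the first Cd49b+ library 584 were called. When the PNA+ and Cd49b+ libraries of one number were summed into 1 sample, or only one of the 2 gates was used, no gene was called (2416 to 2910 at an unadjusted p under 0.05). The libraries of the 2 groups did not overlap for 5549 genes (43.3%), 2852 with higher (22.3%) and 2697 with lower levels (21.1%) in the PNA+ and Cd49b+ libraries. Over all genes tested, 46.4% had a positive and 53.5% a negative fold change.

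Markers that were called went against the labels, and most were not called. Of the progenitor markers Elf5, Kit, Cd14 and Aldh1a3, Elf5 was called lower in the libraries labelled LP and the others were not called, Aldh1a3 with a positive fold change and Kit with a sign that turned between alternatives. The hormone-sensing markers Pgr, Foxa1 and Prlr were called higher there, while 6 of the 19 genes tested in that list had a negative sign. The populations are therefore named below by their surface marks, PNA+, Cd49b+ and Cd49b- PNA-. Both groups were luminal. Krt8, a keratin of the inner layer, stood at 5048 and 6993 CPM (PNA+), 4831 and 6988 CPM (Cd49b+) and 7955 and 13297 CPM (Cd49b- PNA-), against a mean of 3068 CPM in the basal libraries. The basal keratin Krt14 stood at 60.7 and 50.7 CPM (PNA+), 187 and 177 CPM (Cd49b+) and 76.1 and 68.4 CPM (Cd49b- PNA-), against a basal mean of 5799.5 CPM. Both Cd49b+ libraries lay above the other 4 luminal libraries in Krt14, at levels that were still low beside the basal libraries. Itga2, the gene for Cd49b itself, was not among the genes in the deposited counts, so that gate could not be checked by its own transcript. Cd24 was not called (log2 fold change -0.16, SE 0.29, adjusted p = 0.74), although its sign turned with library size alone and on the keratin scale. Itgb1, which encodes Cd29, was called higher in the PNA+ and Cd49b+ libraries (log2 fold change 1.22, SE 0.31, adjusted p = 0.028).

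**Figure D1:**
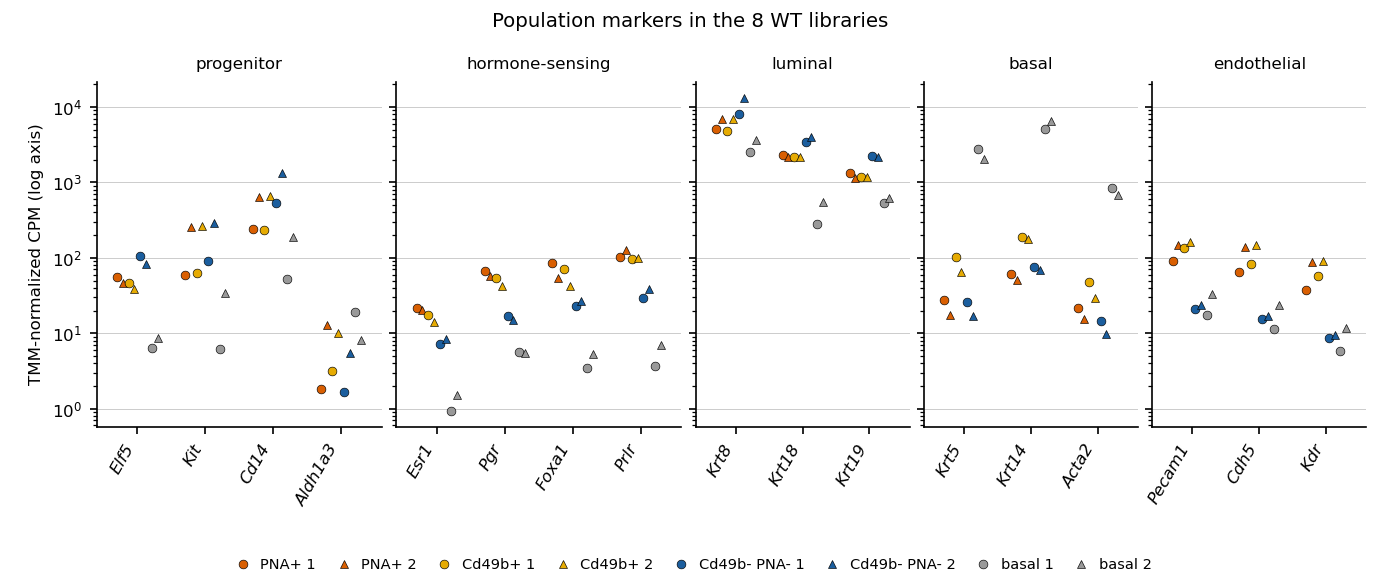
TMM-normalized CPM on a log axis of population markers in the 8 WT libraries (orange, PNA+; yellow, Cd49b+; blue, Cd49b- PNA-; grey, basal; circles, number 1; triangles, number 2). Pgr, Foxa1, Prlr and the endothelial genes are higher in all 4 PNA+ and Cd49b+ libraries than in both Cd49b- PNA- libraries, whereas Elf5 and Krt19 are lower.

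Receptors of the hormone-sensing lineage were higher in the PNA+ and Cd49b+ libraries. In these bulk libraries fewer cells of a type and less RNA per cell cannot be told apart. Pgr, the progesterone receptor, had 66.8 and 57.6 CPM in the PNA+ libraries, 54.0 and 41.7 CPM in the Cd49b+ libraries and 17.2 and 14.8 CPM in the Cd49b- PNA- libraries (log2 fold change 1.78, SE 0.45, adjusted p = 0.027). Prlr, the prolactin receptor, had 103 and 128 CPM in the PNA+ libraries, 97.4 and 98.6 CPM in the Cd49b+ libraries and 28.9 and 38.1 CPM in the Cd49b- PNA- libraries (log2 fold change 1.67, SE 0.35, adjusted p = 0.02). Every PNA+ and Cd49b+ library lay above both Cd49b- PNA- libraries for both receptors. Foxa1, which opens chromatin for the estrogen receptor, stood at 84.2 and 54.3 CPM (PNA+), 70.8 and 42.2 CPM (Cd49b+) and 22.9 and 26.9 CPM (Cd49b- PNA-) (log2 fold change 1.34, SE 0.37, adjusted p = 0.037). Esr1, the estrogen receptor gene, stood at 21.4 and 20.2 CPM (PNA+), 17.5 and 14.3 CPM (Cd49b+) and 7.10 and 8.47 CPM (Cd49b- PNA-) (log2 fold change 1.24, SE 0.42, adjusted p = 0.071, or 0.0076 with the replicate block). Its groups did not overlap either, and its call came with the block alone. In the basal libraries the mean was 1.23 CPM for Esr1 and 5.58 CPM for Pgr.

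Of the 21 hormone-sensing genes listed, 19 were tested, 3 were called higher and none lower, against 5.00% and 5.97% of all genes. Their median log2 fold change was 0.66, against -0.065 over all genes. Set against the Cd49b- PNA- library of the same number, the list's median was 0.98 and 0.36 in the PNA+ libraries and 0.65 and -0.071 in the Cd49b+ libraries, so that the list as a whole did not stand higher in the second Cd49b+ library. With the block, under which 15.8% of all genes were called higher and 18.6% lower, 5 were called higher (Esr1, Pgr, Foxa1, Prlr and Prom1) and 2 lower. These were Ptger3 and Rcan1, with an adjusted p of 0.023 and 0.017, and the sign of Rcan1 turned on the keratin scale and without the second Cd49b- PNA- library. Prom1, a membrane protein that marks hormone-receptor-positive luminal cells, lay between 152 and 361 CPM in the PNA+ and Cd49b+ libraries and at 81.3 and 59.2 CPM in the Cd49b- PNA- libraries (log2 fold change 1.85, SE 0.79, adjusted p = 0.14, or 0.018 with the replicate block). Tbx3, a transcription factor of this lineage, stood at 128 and 93.8 CPM (PNA+), 109.7 and 67.0 CPM (Cd49b+) and 39.4 and 39.4 CPM (Cd49b- PNA-) with an adjusted p of 0.17, and 0.054 with the block. The paracrine ligands that carry the hormone signal, Areg and Wnt4, were not called. Areg, an EGF-family ligand, had a log2 fold change of 0.74 (SE 0.53) with groups that did not overlap, and Wnt4 one of 0.53 (SE 0.62) with groups that did. Gata3, a factor of the whole luminal lineage, differed by 0.17 (SE 0.29).

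Among genes of the progenitor and alveolar lineage, 17 of 17 were tested, none was called higher and Elf5, Cebpb, Mfge8 and Bcl11a were called lower. Of all genes tested, 5.00% were called higher and 5.97% lower. The list's median log2 fold change was -0.65. Elf5, the Ets factor that specifies alveolar fate, had 55.6 and 45.8 CPM in the PNA+ libraries, 47.0 and 39.0 CPM in the Cd49b+ libraries and 105 and 82.0 CPM in the Cd49b- PNA- libraries (log2 fold change -1.0, SE 0.28, adjusted p = 0.039). Both Cd49b- PNA- libraries lay above all 4 others, and all luminal libraries lay above the basal mean of 7.51 CPM. Mfge8, a milk fat globule protein, had 6899 and 4798 CPM in the PNA+ libraries, 6411 and 4942 CPM in the Cd49b+ libraries and 14655 and 10146 CPM in the Cd49b- PNA- libraries (log2 fold change -1.11, SE 0.28, adjusted p = 0.027). Cebpb, a factor needed for alveolar differentiation, fell by 0.81 on the log2 scale (SE 0.22, adjusted p = 0.037), and Bcl11a, a repressor found in luminal progenitors, fell by 0.77 (SE 0.22, adjusted p = 0.042). On the keratin scale the fold changes were -0.23 for Elf5, -0.34 for Mfge8, -0.035 for Cebpb and 0.007 for Bcl11a, whose sign turned, and the list's median was 0.049, against 0.73 over all genes.

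The other progenitor markers were not called without the block. Kit, the stem cell factor receptor, was 58.7 and 254 CPM (PNA+), 63.0 and 262 CPM (Cd49b+) and 91.0 and 291 CPM (Cd49b- PNA-). Its levels followed the library number more than the surface marks, and its sign turned without the first PNA+, the first Cd49b+ or the second Cd49b- PNA- library and on the keratin scale (log2 fold change -0.26, SE 1.01). Cd14, a co-receptor for endotoxin used as a progenitor mark, was 244 and 641 CPM (PNA+), 234 and 655 CPM (Cd49b+) and 532 and 1324 CPM (Cd49b- PNA-) (log2 fold change -1.07, SE 0.64, adjusted p = 0.29, or 0.0066 with the replicate block). Each PNA+ and Cd49b+ library was below the Cd49b- PNA- library of its own number for Cd14, although the groups overlapped. Sox10 (log2 fold change -1.18, SE 0.42, adjusted p = 0.087, or 0.0077 with the replicate block), Sox9 (log2 fold change -0.60, SE 0.22, adjusted p = 0.09, or 0.015 with the replicate block) and Lbp (log2 fold change -1.05, SE 0.89, adjusted p = 0.47, or 0.01 with the replicate block) were likewise called lower with the block, Sox9 turning sign on the keratin scale. Sox10 and Sox9 are transcription factors of plastic mammary epithelial states, and Lbp binds endotoxin. Aldh1a3, an aldehyde dehydrogenase of progenitors, stood at 1.83 and 13.0 CPM (PNA+), 3.19 and 10.1 CPM (Cd49b+) and 1.66 and 5.49 CPM (Cd49b- PNA-), with an adjusted p of 0.6. Tspan8, a tetraspanin, was the list's one gene called higher with the block (log2 fold change 1.41, SE 0.59, adjusted p = 0.13, or 0.023 with the replicate block). With the block 8 of the 17 genes were called lower, against 18.6% of all genes, and 1 higher, against 15.8%.

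Milk protein genes were at high levels in all 6 libraries, and 12 of 14 had a negative fold change, against 53.5% of all genes. The summed level of the 14 milk genes was between 21818 and 68673 CPM in the PNA+ and Cd49b+ libraries and between 47491 and 89812 CPM in the Cd49b- PNA- libraries, and these ranges overlapped. Of 14 tested, 1 was called lower (Csn1s2b) and none higher, a share close to the 5.97% of all genes called lower. The median log2 fold change was -0.63. Csn1s2b, an alpha-S2 casein, had 144 and 119 CPM in the PNA+ libraries, 107 and 116 CPM in the Cd49b+ libraries and 266 and 241 CPM in the Cd49b- PNA- libraries (log2 fold change -1.06, SE 0.25, adjusted p = 0.023). With the block 7 were called lower (Csn1s1, Csn1s2b, Csn3, Lalba, Muc1, Olah and Cel) and Spp1 was called higher, against 18.6% and 15.8% of all genes. The adjusted p with the block was 0.05 for Csn1s1, 0.048 for Muc1, 0.014 for Cel and 0.017 for Spp1. Csn1s1 turned sign without the first Cd49b- PNA- library. Lalba, the regulatory subunit of lactose synthase, had 3492 and 3615 CPM in the PNA+ libraries, 2605 and 3441 CPM in the Cd49b+ libraries and 8286 and 10238 CPM in the Cd49b- PNA- libraries (log2 fold change -1.49, SE 0.87, adjusted p = 0.27, or 0.012 with the replicate block). Csn3, the kappa casein that caps casein micelles, had 16406 and 12375 CPM in the PNA+ libraries, 12108 and 10678 CPM in the Cd49b+ libraries and 28642 and 24130.4 CPM in the Cd49b- PNA- libraries (log2 fold change -1.03, SE 0.50, adjusted p = 0.19, or 0.021 with the replicate block). Neither gene's groups overlapped. Olah, a thioesterase that ends milk fatty acid chains, stood at 4011 and 2453 CPM (PNA+), 3082 and 2448 CPM (Cd49b+) and 5716 and 3946 CPM (Cd49b- PNA-) (log2 fold change -0.69, SE 0.28, adjusted p = 0.13, or 0.023 with the replicate block). On the keratin scale the list's median was 0.15, with -0.28 for Csn1s2b, -0.25 for Csn3, -0.69 for Lalba and a turned sign for Olah (0.078) and Muc1 (0.22).

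Several milk genes differed far more between the library numbers than between the surface marks. Csn2, the beta casein, was 19319 and 1186 CPM (PNA+), 13170.5 and 894 CPM (Cd49b+) and 19953 and 1472 CPM (Cd49b- PNA-). Csn1s2a, the other alpha-S2 casein, was 1198 and 13.6 CPM (PNA+), 774 and 12.5 CPM (Cd49b+) and 1314 and 16.9 CPM (Cd49b- PNA-), and Glycam1, a mucin-like milk protein, was 8363 and 85.3 CPM (PNA+), 4932 and 68.8 CPM (Cd49b+) and 2147 and 113 CPM (Cd49b- PNA-). In each of these 3 genes every number 1 library was above every number 2 library. Their population differences were within this spread, at a log2 fold change of -0.31 (SE 1.20) for Csn2, -0.41 (SE 1.64) for Csn1s2a and 1.57 (SE 1.72) for Glycam1. The signs for Csn2 and Csn1s2a turned without the first Cd49b- PNA- library. The reverse order by number was seen in the acute-phase genes Lcn2 and Chi3l1, in which every number 2 library was above its number 1 counterpart. Lcn2, a siderophore-binding protein, stood at 22.2 and 794 CPM (PNA+), 23.4 and 792 CPM (Cd49b+) and 55.4 and 1982 CPM (Cd49b- PNA-), and Chi3l1, a chitinase-like protein, at 499 and 3348 CPM (PNA+), 553 and 3656 CPM (Cd49b+) and 1561 and 7062 CPM (Cd49b- PNA-). Without the block neither was called (0.59 and 0.45 as adjusted p), and with it both were called lower in the PNA+ and Cd49b+ libraries (0.0097 and 0.0064). The signs of both turned without the second Cd49b- PNA- library. What separates number 1 from number 2 is not given in the labels.

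**Figure D2:**
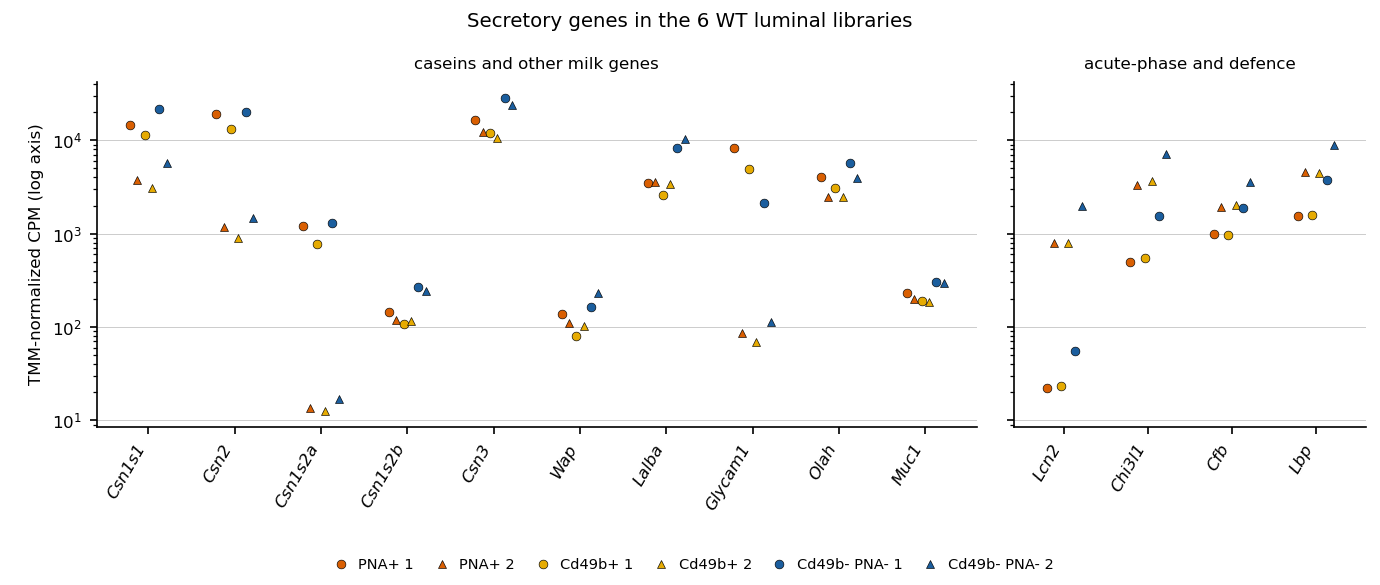
TMM-normalized CPM on a log axis of milk protein genes and 4 acute-phase or defence genes in the 6 compared libraries (colors by surface marks; circles, number 1; triangles, number 2). Csn1s1, Csn2, Csn1s2a and Glycam1 are higher in number 1 and the defence genes in number 2, and within a number the Cd49b- PNA- library has the highest level of every gene but Glycam1 in number 1.

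The promoters of the caseins are shown because these genes lie together on 1 chromosome and split into those that followed the library number and those that did not. Each line gives 100 bases from the RefSeq promoters of the GRCr8 build, 150 to 51 bases before the annotated start, read 5′ to 3′ on the gene's own strand, with matches to the motif TTCNNNGAA in capitals. This palindromic motif, which reads the same on both strands, is of the type that Stat5, the factor activated by prolactin, binds. The counts themselves were made on the rn6 build.
Csn1s1, chr14:20638900-20638999, minus strand: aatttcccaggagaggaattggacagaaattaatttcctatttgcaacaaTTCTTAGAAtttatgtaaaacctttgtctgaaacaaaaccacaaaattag
Csn2, chr14:20601674-20601773, plus strand: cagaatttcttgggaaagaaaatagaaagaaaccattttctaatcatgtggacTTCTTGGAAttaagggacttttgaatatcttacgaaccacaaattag
Csn1s2a, chr14:20574522-20574621, minus strand: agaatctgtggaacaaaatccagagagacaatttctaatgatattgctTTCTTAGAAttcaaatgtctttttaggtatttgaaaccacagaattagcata
Csn1s2b, chr14:20545669-20545768, minus strand: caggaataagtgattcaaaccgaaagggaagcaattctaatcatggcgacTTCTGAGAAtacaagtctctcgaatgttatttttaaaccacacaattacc
Csn3, chr14:20439881-20439980, minus strand: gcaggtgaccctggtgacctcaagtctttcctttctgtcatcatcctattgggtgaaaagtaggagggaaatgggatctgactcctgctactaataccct

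The motif stood 97 to 102 bases before the start in Csn1s1, Csn2, Csn1s2a and Csn1s2b and was absent from these letters in Csn3. Over the full 300 bases held for each promoter, 5 of the 14 milk genes had it, the fifth being Glycam1 at 175 bases before the start. It was in 2970 of 33469 RefSeq promoters of the same length (8.87%). The motif was shared by Csn2 and Csn1s2a, whose levels split by number, and Csn1s2b, which had 144 and 119 CPM in the PNA+ libraries of number 1 and 2, and a match in the letters does not show binding.

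Genes of prolactin and Stat5 signaling moved in both directions. Of 14 tested, Prlr and the feedback inhibitor Socs2 were called higher and Elf5, a Stat5 partner in alveolar cells, lower, against 5.00% and 5.97% of all genes. The median log2 fold change was 0.17. Socs2 had 8.82 and 7.27 CPM in the PNA+ libraries, 10.0 and 8.15 CPM in the Cd49b+ libraries and 2.47 and 1.96 CPM in the Cd49b- PNA- libraries (log2 fold change 1.95, SE 0.58, adjusted p = 0.047). With the block Jak2, Igf2 and Erbb4 were also called higher, and Stat5a, Stat5b and Tnfrsf11a lower, Igf2 with an adjusted p of 0.027. In total 5 of the 14 were called higher and 4 lower with the block, against 15.8% and 18.6% of all genes. Jak2 is the kinase bound to the prolactin receptor (log2 fold change 0.90, SE 0.44, adjusted p = 0.2, or 0.009 with the replicate block), and Erbb4 is a neuregulin receptor that can activate Stat5 (log2 fold change 2.02, SE 0.68, adjusted p = 0.07, or 0.0091 with the replicate block). Erbb4 stood at 25.2 and 14.5 CPM (PNA+), 26.2 and 12.0 CPM (Cd49b+) and 4.90 and 4.68 CPM (Cd49b- PNA-), with no overlap. Stat5a differed by -0.59 (SE 0.27, adjusted p = 0.16, or 0.037 with the block) on the log2 scale, Stat5b by -0.34 (SE 0.23, adjusted p = 0.36, or 0.035 with the block) and Tnfrsf11a, the receptor for the progesterone-induced ligand Rankl, by -0.81 (SE 0.49, adjusted p = 0.29, or 0.0077 with the block), and all 3 turned sign on the keratin scale. Stat5a also turned sign without the first, and Tnfrsf11a without the second, Cd49b- PNA- library.

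Luminal keratins and ribosomal protein genes stood lower in the PNA+ and Cd49b+ libraries on the TMM scale. All 5 luminal keratins tested had a negative fold change, with a median of -0.87. Krt19 was called, at 1342 and 1140.0 CPM (PNA+), 1177 and 1171 CPM (Cd49b+) and 2239.9 and 2186 CPM (Cd49b- PNA-) (log2 fold change -0.87, SE 0.25, adjusted p = 0.04), against 5.97% of all genes called lower. All 5 were called lower with the block, at an adjusted p between 0.01 and 0.024, against 18.6% of all genes. On a scale set by Krt8, Krt18 and Krt19 this difference is removed by construction. None of the 18 claudin and tight junction genes tested was called, and with the block Cldn3, Cldn4, Cldn7, Cldn23 and Tjp3 were lower while Cldn5 and Tjp1 were higher. These block calls were 7 of 18, a total near the 34.4% of all genes. The adjusted p with the block was 0.0092 for Cldn4, 0.013 for Cldn7, 0.019 for Cldn23, 0.0094 for Tjp3 and 0.0085 for Tjp1, and the sign of Cldn23 turned on the keratin scale. Cldn3 was 1067 and 1296 CPM (PNA+), 927 and 1366 CPM (Cd49b+) and 2092 and 3018 CPM (Cd49b- PNA-) (log2 fold change -1.13, SE 0.35, adjusted p = 0.055, or 0.007 with the replicate block), whereas Cldn5, the claudin of vessel walls, was 12.3 and 15.5 CPM (PNA+), 18.9 and 15 CPM (Cd49b+) and 6.07 and 3.66 CPM (Cd49b- PNA-) (log2 fold change 1.66, SE 0.78, adjusted p = 0.18, or 0.033 with the replicate block). Of 77 ribosomal protein genes tested, a list added after seeing that 3 of them (Rpl36a, Rpl35a and Rps20) were among the 15 genes with the largest falls above a mean log2 CPM of 2, 47 were called lower and 1, Rpl37a, at under 1 CPM in every library, higher (72 and 1 with the block). Of all genes, 5.97% were called lower, and 18.6% with the block. The median log2 fold change of the ribosomal protein genes was -0.88, and -0.052 on the keratin scale. Rps20 was 186 and 158 CPM (PNA+), 158 and 140.4 CPM (Cd49b+) and 296 and 387 CPM (Cd49b- PNA-) (log2 fold change -1.09, SE 0.24, adjusted p = 0.021). Many ribosomal protein genes have processed copies elsewhere in the genome, so that counting of unique reads can lose part of their signal.

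Of all lists examined, the endothelial markers, genes of blood vessel cells, had the largest median difference. All 11 tested had higher levels in every PNA+ and Cd49b+ library than in both Cd49b- PNA- libraries, which held for 22.3% of all genes. Pecam1, Cdh5, Kdr, Tek and Emcn were called (11 of 11 with the block, against 15.8% of all genes called higher), and the median log2 fold change was 2.24. Kdr, the main VEGF receptor, had 37.7 and 88.2 CPM in the PNA+ libraries, 56.8 and 89.8 CPM in the Cd49b+ libraries and 8.54 and 9.41 CPM in the Cd49b- PNA- libraries (log2 fold change 2.92, SE 0.68, adjusted p = 0.022). Cdh5, the cadherin of endothelial junctions, had 65.6 and 138 CPM in the PNA+ libraries, 84.0 and 149 CPM in the Cd49b+ libraries and 15.7 and 16.9 CPM in the Cd49b- PNA- libraries (log2 fold change 2.75, SE 0.68, adjusted p = 0.027). Pecam1 encodes Cd31, which the study stained to mark endothelial cells, and it had 90.6 and 146 CPM in the PNA+ libraries, 134 and 161 CPM in the Cd49b+ libraries and 20.8 and 24.0 CPM in the Cd49b- PNA- libraries (log2 fold change 2.57, SE 0.65, adjusted p = 0.028). Tek, the angiopoietin receptor, rose by 2.60 on the log2 scale (SE 0.67, adjusted p = 0.029). The summed level of the 11 genes was between 748 and 1562 CPM in the PNA+ and Cd49b+ libraries, between 233 and 319 CPM in the Cd49b- PNA- libraries and between 249 and 672 CPM in the basal libraries. The called hormone-sensing, Fgf and cytokine genes and the genes named next were higher in the same libraries as the endothelial genes. Among those libraries the endothelial and hormone-sensing sums ran in opposite orders. In PNA+ 1, Cd49b+ 1, PNA+ 2 and Cd49b+ 2 the endothelial sum was 748, 1065, 1426 and 1562 CPM. The hormone-sensing sum was 2190, 1877, 1849 and 1594 CPM. The part of the endothelial genes in those results was not tested.

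Among genes whose groups did not overlap and whose log2 CPM averaged over 2, the 15 with the largest called rise were Npy1r, Sele, Fgl2, Adgrl4, Clec1a, Abcc9, Calcrl, Cd36, Sema6d, Dmbt1, Pcdh19, Akap2, Adgrf5, Dlc1 and Ebf1, with log2 fold changes from 2.95 to 3.68. Sele, the selectin by which activated endothelium captures leukocytes, had 90.8 and 161 CPM in the PNA+ libraries, 140.3 and 211 CPM in the Cd49b+ libraries and 12.0 and 13.2 CPM in the Cd49b- PNA- libraries (log2 fold change 3.58, SE 0.74, adjusted p = 0.02). Adgrl4 and Adgrf5 are adhesion receptors of endothelium, Calcrl is the receptor for adrenomedullin, and Cd36 takes up fatty acids in capillaries, adipocytes and epithelium. Npy1r, a neuropeptide Y receptor, had 28.2 and 48.6 CPM in the PNA+ libraries, 42.7 and 60.4 CPM in the Cd49b+ libraries and 3.51 and 3.49 CPM in the Cd49b- PNA- libraries (log2 fold change 3.68, SE 0.93, adjusted p = 0.027). Cd36 stood at 86.0 and 118 CPM (PNA+), 115 and 123 CPM (Cd49b+) and 14.2 and 8.30 CPM (Cd49b- PNA-) (log2 fold change 3.29, SE 0.59, adjusted p = 0.019). Abcc9, a potassium channel subunit of pericytes and muscle, rose by 3.37 (SE 0.75, adjusted p = 0.021). In these 15 genes the lowest PNA+ or Cd49b+ library was the first PNA+ library.

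Under the same limits, the 15 genes with the largest called fall, leaving out 2 without a gene name, had smaller changes than those with the largest rise, from -1.78 for Spns3 to -1.09 for Comtd1. Larger called falls lay below that mean level. The 15 were Spns3, Sbsn, Irx1, Eva1b, Fxyd3, Rpl36a, Mia, Pafah1b3, Impa2, Mfge8, Abhd11os, Rpl35a, Rps20, Alkbh2 and Comtd1. Irx1, a homeobox factor, had 94.6 and 64.5 CPM in the PNA+ libraries, 84.2 and 59.7 CPM in the Cd49b+ libraries and 252 and 119 CPM in the Cd49b- PNA- libraries (log2 fold change -1.29, SE 0.32, adjusted p = 0.025). Fxyd3, a sodium pump regulator of epithelia, had 163 and 217 CPM in the PNA+ libraries, 148 and 231 CPM in the Cd49b+ libraries and 352 and 506 CPM in the Cd49b- PNA- libraries (log2 fold change -1.18, SE 0.30, adjusted p = 0.029). Pafah1b3, a subunit of platelet-activating factor acetylhydrolase, fell by 1.12 (SE 0.25, adjusted p = 0.021).

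**Figure D3:**
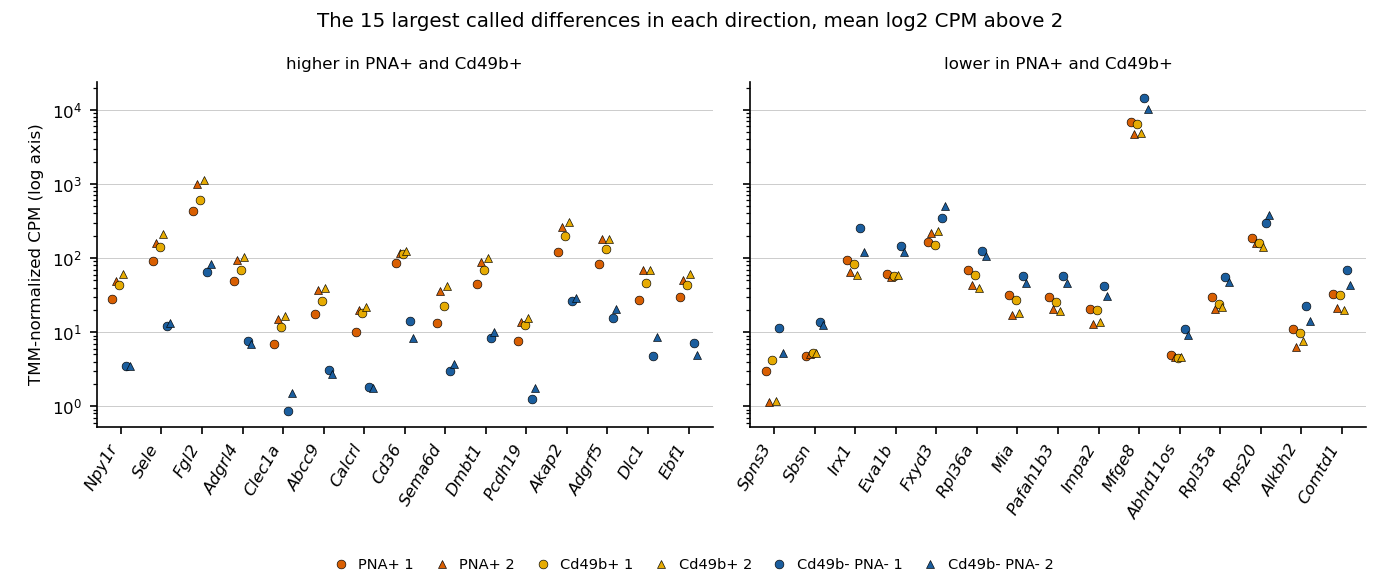
TMM-normalized CPM on a log axis, in the 6 compared libraries, of the 15 genes with the largest called rise and the 15 with the largest called fall among genes with a mean log2 CPM above 2 (colors by surface marks; circles, number 1; triangles, number 2). The log2 fold changes run from 2.95 to 3.68 for the rises and from -1.78 to -1.09 for the falls, and in no gene do the groups overlap, as the rule that chose them requires.

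Markers of other cell types differed in their direction. Of 17 basal and myoepithelial genes tested none was called, against 11.0% of all genes, and 2 were called higher with the block, against 15.8%. In 16 the sign was positive, against 46.4% of all genes, and the median log2 fold change was 1.28. Their summed level was between 1589 and 3373 CPM in the PNA+ and Cd49b+ libraries, between 823 and 1048 CPM in the Cd49b- PNA- libraries and between 30933 and 40920.1 CPM in the basal libraries. The median difference from the Cd49b- PNA- library of the same number was 1.75 and 1.62 in the Cd49b+ libraries and 0.51 and 0.32 in the PNA+ libraries. Myh11, the smooth muscle myosin, was 88.2 and 136 CPM (PNA+), 193 and 257 CPM (Cd49b+) and 23.5 and 27.7 CPM (Cd49b- PNA-) (log2 fold change 2.72, SE 1.02, adjusted p = 0.098, or 0.045 with the replicate block). Of 10 fibroblast genes tested, Pdgfrb, which pericytes also express, was called higher (log2 fold change 2.56, SE 0.76, adjusted p = 0.046), against 5.00% of all genes. With the block 2 were called higher, against 15.8% of all genes. The list summed to between 611 and 1503 CPM in the PNA+ and Cd49b+ libraries and between 398 and 883 CPM in the Cd49b- PNA- libraries. Of 5 adipocyte genes tested, Fabp4, also expressed by capillary endothelium, was 373 and 386 CPM (PNA+), 477 and 375 CPM (Cd49b+) and 158 and 149.6 CPM (Cd49b- PNA-) (log2 fold change 1.39, SE 0.38, adjusted p = 0.035) and Pparg was called higher as well (log2 fold change 2.20, SE 0.55, adjusted p = 0.027), while the median of these 5 genes was -0.84. Of all genes 5.00% were called higher. With the block 2 adipocyte genes were called higher and 1 lower, against 15.8% and 18.6% of all genes.

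Blood cell genes were near the limit of detection in all 6 libraries. The 9 myeloid genes summed to between 5.03 and 10.7 CPM in the PNA+ and Cd49b+ libraries and between 8.63 and 13.5 CPM in the Cd49b- PNA- libraries and the 8 lymphoid genes tested to between 4.23 and 5.42 CPM in the PNA+ and Cd49b+ libraries and between 5.66 and 6.21 CPM in the Cd49b- PNA- libraries. Ptprc, which encodes Cd45, was 0.366 and 0.940 CPM (PNA+), 0.519 and 1.22 CPM (Cd49b+) and 1.26 and 1.06 CPM (Cd49b- PNA-), with no call. Of the 9 myeloid genes, 6 were not called. Itgam, Cd163 and Mrc1, genes of macrophages, were called lower in the PNA+ and Cd49b+ libraries, against 5.97% of all genes. For Cd163 these 4 libraries held 0, 2, 0 and 0 counts (PNA+ 1 and 2, Cd49b+ 1 and 2) and the Cd49b- PNA- libraries 28 and 45. Called falls at low levels in the same 4 libraries were not particular to blood cell genes. They included Alb and Apob, at a mean log2 CPM of -1.75 and -0.18. Among 23 mucosal defence genes tested the call was Ltf, the milk iron-binding protein lactoferrin, with 0 counts in each of the 4 libraries and 9 in each Cd49b- PNA- library. That list had a median log2 fold change of -0.78, and with the block 1 was called higher and 8 lower, against 15.8% and 18.6% of all genes. Of the Schwann cell and erythrocyte genes (6 and 3 tested) and the 6 MHC class II genes none was called, with or without the block.

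Of 11 Fgf pathway genes tested, Fgfr2 and Spry4 were called higher and none lower, against 5.00% of all genes called higher. In 10 of the 11 the sign was positive, against 46.4%, and the median log2 fold change was 1.06. Fgfr2, the receptor through which stromal Fgfs act on mammary epithelium, had 116 and 135 CPM in the PNA+ libraries, 128 and 142 CPM in the Cd49b+ libraries and 34.5 and 62.5 CPM in the Cd49b- PNA- libraries (log2 fold change 1.43, SE 0.42, adjusted p = 0.045). Spry4, a feedback inhibitor induced by the pathway, had 22.1 and 43.2 CPM in the PNA+ libraries, 32.8 and 48.7 CPM in the Cd49b+ libraries and 5.80 and 8.13 CPM in the Cd49b- PNA- libraries (log2 fold change 2.40, SE 0.57, adjusted p = 0.023). Spry1 (log2 fold change 1.57, SE 0.49, adjusted p = 0.055, or 0.0068 with the replicate block) and Fgf7 (log2 fold change 2.84, SE 0.88, adjusted p = 0.055, or 0.035 with the replicate block) were called with the block. Fgf7, a stromal ligand of Fgfr2, was at 2.06 CPM ± 0.690 (SD, n = 4) in the PNA+ and Cd49b+ libraries, and under 1 CPM in both Cd49b- PNA- libraries.

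Of 30 chemokines and cytokines tested, Il6, Il33 and Csf2 were called higher and none lower, a share close to the 11.0% called of all genes. Il6 had 78.1 and 136 CPM in the PNA+ libraries, 101 and 142 CPM in the Cd49b+ libraries and 18.7 and 23.2 CPM in the Cd49b- PNA- libraries (log2 fold change 2.45, SE 0.56, adjusted p = 0.022). Il33, an alarmin stored in nuclei of epithelium and endothelium, had 201 and 332 CPM in the PNA+ libraries, 235 and 351 CPM in the Cd49b+ libraries and 103 and 136 CPM in the Cd49b- PNA- libraries (log2 fold change 1.23, SE 0.26, adjusted p = 0.02). Csf2, the granulocyte-macrophage factor, lay between 2.52 and 5.59 CPM in the PNA+ and Cd49b+ libraries and at 0.315 and 0.596 CPM in the Cd49b- PNA- libraries (log2 fold change 2.97, SE 0.80, adjusted p = 0.034). With the block 7 genes were called higher (Cxcl12, Ccl2, Ccl7, Il6, Il33, Csf2 and Csf3) and 7 lower (Cxcl1, Cxcl2, Cxcl16, Cxcl17, Ccl28, Lif and Tgfb3), of which Cxcl1, Cxcl2, Cxcl16 and Lif turned sign on the keratin scale. The shares of all genes with the block were 15.8% higher and 18.6% lower. The adjusted p with the block lay between 0.018 and 0.037 for Cxcl12, Ccl7 and Csf3 and between 0.0096 and 0.034 for Cxcl1, Cxcl2, Cxcl16, Lif and Tgfb3. Ccl2, which attracts monocytes, was 133 and 236 CPM (PNA+), 171 and 275 CPM (Cd49b+) and 38.4 and 73.2 CPM (Cd49b- PNA-) (log2 fold change 1.87, SE 0.60, adjusted p = 0.06, or 0.016 with the replicate block). Cxcl17, a mucosal chemokine, was 3.53 and 8.71 CPM (PNA+), 2.85 and 7.48 CPM (Cd49b+) and 10.7 and 17.7 CPM (Cd49b- PNA-) (log2 fold change -1.33, SE 0.61, adjusted p = 0.17, or 0.0083 with the replicate block). Ccl28, which draws plasma cells to the lactating gland, was 0.666 and 2.16 CPM (PNA+), 0.778 and 2.26 CPM (Cd49b+) and 2.38 and 4.60 CPM (Cd49b- PNA-) (log2 fold change -1.24, SE 0.70, adjusted p = 0.26, or 0.017 with the replicate block). The groups did not overlap in these 3 genes.

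In the Notch pathway, which acts in luminal fate, Rbpj and Maml3 were called higher of 19 tested, also a share close to the 11.0% of all genes. Rbpj, the DNA-binding partner of cleaved Notch, stood at 55.6 and 69.5 CPM (PNA+), 58.5 and 72.4 CPM (Cd49b+) and 31.7 and 37.2 CPM (Cd49b- PNA-) (log2 fold change 0.89, SE 0.27, adjusted p = 0.049), and Maml3, its co-activator, at 10.8 and 11.2 CPM (PNA+), 8.71 and 9.94 CPM (Cd49b+) and 4.00 and 5.19 CPM (Cd49b- PNA-) (log2 fold change 1.14, SE 0.33, adjusted p = 0.042). With the block 6 were called higher, among them Notch4, Dll1 and Dll4, and 1 lower, a total near the 34.4% of all genes. Dll4 and Notch4 are a ligand and a receptor best known from vessels. Dll1 had an adjusted p of 0.023 with the block. Dll4 had a log2 fold change of 1.97 (SE 0.72, adjusted p = 0.089, or 0.036 with the block). Notch4 had one of 0.70 (SE 0.35, adjusted p = 0.2, or 0.031 with the block). In the Wnt pathway 1 of 31 was called, against 11.0% of all genes. With the block 5 were called higher and 4 lower, against 15.8% and 18.6% of all genes. The call without the block was the receptor Fzd4, which lay between 5.69 and 7.87 CPM in the PNA+ and Cd49b+ libraries and at 1.03 and 1.96 CPM in the Cd49b- PNA- libraries (log2 fold change 2.18, SE 0.62, adjusted p = 0.04). Rspo1, a Wnt amplifier of luminal cells, followed the library number, at 39.8 and 1.47 CPM (PNA+), 39.9 and 0.986 CPM (Cd49b+) and 113 and 4.81 CPM (Cd49b- PNA-), and its groups overlapped. It was called lower with the block (adjusted p = 0.015), but its sign turned without the first Cd49b- PNA- library. None of 14 EGF family genes was called, and with the block Erbb4 alone was called higher, against 11.0% and 34.4% of all genes called.

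**Figure D4:**
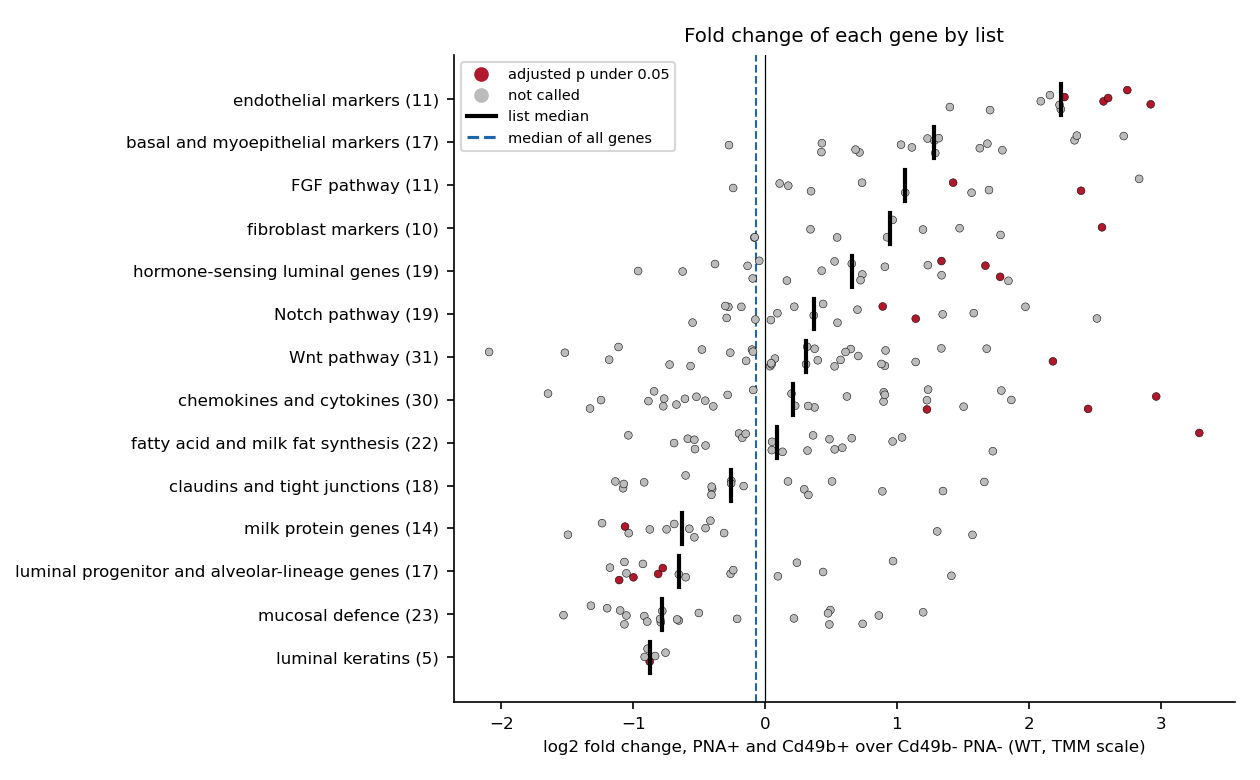
Log2 fold change on the TMM scale of each tested gene in 14 lists, PNA+ and Cd49b+ over Cd49b- PNA- libraries of WT rats (red, adjusted p under 0.05; grey, not called; black bars, list medians; dashed line, median of all genes; numbers of genes tested in parentheses, Ltf not drawn because it had no counts in 4 libraries). Of these lists, endothelial markers have the highest median (2.24) and luminal keratins the lowest (-0.87).

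Enzymes of core 1 O-glycans were examined because PNA reads this glycan. Of 17 tested, Galnt1 and Galnt7, which place the first N-acetylgalactosamine on the protein, and St6galnac3, a sialyltransferase, were called higher in the PNA+ and Cd49b+ libraries and none lower. Among all genes 5.00% were called higher. Galnt1 had 87.1 and 101 CPM in the PNA+ libraries, 89.4 and 104 CPM in the Cd49b+ libraries and 58.1 and 47.7 CPM in the Cd49b- PNA- libraries (log2 fold change 0.85, SE 0.22, adjusted p = 0.029), and Galnt7 37.4 and 43.0 CPM in the PNA+ libraries, 38.5 and 42.6 CPM in the Cd49b+ libraries and 20.9 and 26.4 CPM in the Cd49b- PNA- libraries (log2 fold change 0.77, SE 0.20, adjusted p = 0.032). C1galt1, which adds the galactose that PNA binds, stood at 57.3 and 74.7 CPM (PNA+), 53.8 and 76.8 CPM (Cd49b+) and 35.6 and 45.8 CPM (Cd49b- PNA-) (log2 fold change 0.69, SE 0.31, adjusted p = 0.15, or 0.038 with the replicate block). St3gal4, a sialyltransferase, was lower only with the block (log2 fold change -0.42, SE 0.28, adjusted p = 0.34, or 0.012 with the block), and its sign turned on the keratin scale. The higher levels were seen in both gates and not in the PNA+ libraries alone. The gates as defined do not exclude each other, so the Cd49b+ libraries may hold PNA+ cells. With the block 4 of the 17 were called higher and 3 lower, against 15.8% and 18.6% of all genes.

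Of 22 genes of fatty acid and milk fat synthesis, Cd36 was called, against 11.0% of all genes. With the block 4 were called higher and 2 lower, against 15.8% and 18.6% of all genes. Among the higher was Lpl, the lipase that frees fatty acids from lipoproteins (log2 fold change 0.53, SE 0.18, adjusted p = 0.075, or 0.02 with the replicate block). Of 26 transporters and channels of secretory epithelium, the water channel Aqp1 (log2 fold change 1.40, SE 0.39, adjusted p = 0.039) and Clca2 (log2 fold change 1.54, SE 0.31, adjusted p = 0.019) were called higher, against 5.00% of all genes. Cftr and Atp2b2, the chloride channel and the calcium pump of milk secretion, were called lower, against 5.97%. Cftr stood at 0.067 and 0.063 CPM (PNA+), 0.148 and 0.203 CPM (Cd49b+) and 1.35 and 0.553 CPM (Cd49b- PNA-). Atp2b2 stood at 0.133 and 0.094 CPM (PNA+), 0.037 and 0.145 CPM (Cd49b+) and 1.80 and 1.11 CPM (Cd49b- PNA-). Called falls at such low levels were not particular to secretion genes. They included Alb, the albumin gene (log2 fold change -7.18, mean log2 CPM -1.75), and Apob, an apolipoprotein gene (-6.60, mean log2 CPM -0.18). With the block 7 of the 26 were called higher and 7 lower, against 15.8% and 18.6% of all genes. Aqp1 is also abundant in capillary endothelium, and Clca2 is a regulator of chloride conductance in epithelia.

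Among 35 luminal lineage transcription factors tested, Foxa1 and Nfia were called higher and Elf5, Cebpb, Cebpd, Bcl11a and Tfap2c lower (4 and 11 with the block). Of all genes, 5.00% were called higher and 5.97% lower (15.8% and 18.6% with the block). Cebpd, a factor of the same family as Cebpb, had 211 and 207 CPM in the PNA+ libraries, 222 and 225 CPM in the Cd49b+ libraries and 399 and 368 CPM in the Cd49b- PNA- libraries (log2 fold change -0.83, SE 0.23, adjusted p = 0.036). Nfia, a nuclear factor I protein, had 48.6 and 57.7 CPM in the PNA+ libraries, 52.3 and 64.1 CPM in the Cd49b+ libraries and 24.4 and 34.2 CPM in the Cd49b- PNA- libraries (log2 fold change 0.93, SE 0.24, adjusted p = 0.029). Tfap2c, which works with the estrogen receptor, stood at 111 and 75.3 CPM (PNA+), 111 and 97.2 CPM (Cd49b+) and 199 and 134 CPM (Cd49b- PNA-) (log2 fold change -0.75, SE 0.23, adjusted p = 0.047), and its sign turned on the keratin scale (0.0038). In retinoid metabolism Dhrs3, which reduces retinal, was the one call of 16 (log2 fold change -0.63, SE 0.19, adjusted p = 0.049), also with a turned sign on that scale. Of all genes 11.0% were called. With the block 1 retinoid gene was called higher and 4 lower, a total near the 34.4% of all genes.

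Of 37 S phase genes tested Atad2 and Casp8ap2 were called higher and Clspn, at under 1 CPM, lower, and of 46 G2 and M phase genes none was called, against 11.0% of all genes. With the block 6 S phase genes were called higher and 6 lower, and 4 G2 and M phase genes higher and 1 lower, against 34.4% of all genes. Mki67, the proliferation marker, was 6.46 and 3.26 CPM (PNA+), 10.0 and 3.91 CPM (Cd49b+) and 5.89 and 2.55 CPM (Cd49b- PNA-) (adjusted p = 0.67), with groups that overlapped. Cdkn1b, which encodes p27 and is intact in these rats, was 9.35 and 7.68 CPM (PNA+), 10.7 and 6.15 CPM (Cd49b+) and 9.75 and 6.47 CPM (Cd49b- PNA-) (log2 fold change 0.061, SE 0.31, adjusted p = 0.92), and its sign turned under 4 of the alternatives. Ccnd2, a D-type cyclin, was the one call among 20 CDK inhibitors and G1 cyclins, against 11.0% of all genes. With the block 2 of the 20 were called, against 34.4% of all genes. Ccnd2 had 15.5 and 19.9 CPM in the PNA+ libraries, 26.0 and 23.3 CPM in the Cd49b+ libraries and 3.82 and 3.11 CPM in the Cd49b- PNA- libraries (log2 fold change 2.61, SE 0.77, adjusted p = 0.046). Of 18 immediate early genes, which respond to tissue dissociation, Fosl2 was called higher (log2 fold change 0.85, SE 0.26, adjusted p = 0.049) and the list's median was -0.38. Of 17 heat shock genes Hspe1 was called lower (log2 fold change -1.06, SE 0.30, adjusted p = 0.038), and of 19 interferon-stimulated genes none was called. Of all genes, 5.00% were called higher and 5.97% lower. With the block 1 immediate early gene was called higher and 4 lower, 1 heat shock gene higher and 5 lower, and 5 interferon-stimulated genes higher and 3 lower. The shares of all genes with the block were 15.8% higher and 18.6% lower.

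The same gates in Cdkn1b-/- rats, 4 libraries against 2, gave a separate set of libraries in the same fit. Unassigned reads were 47.1% to 52.0% of the total in its PNA+ and Cd49b+ libraries and 62.8% and 70.8% in its Cd49b- PNA- libraries. This difference ran in the same direction as in WT, and its part in signs shared by the genotypes was not tested. No gene was called in Cdkn1b-/- (0.00%), with 2254 at an unadjusted p under 0.05, and 228 were called with the block (1.78%). Of the 1406 genes called in WT, 1396 had the same sign in Cdkn1b-/-, a share of 99.3%, against 82.6% of all genes. The median over all genes was -0.077. The endothelial markers had a median log2 fold change of 2.18 there, close to the WT value of 2.24. Their summed level was uneven, at 1837 CPM in the second Cd49b+ library of Cdkn1b-/-. The other PNA+ and Cd49b+ libraries held 434 to 641 CPM and the Cd49b- PNA- libraries 379 and 168 CPM. That Cd49b+ library also held 6600 CPM of the basal and myoepithelial genes, against 884 to 1490 CPM in the other PNA+ and Cd49b+ libraries. Kdr differed by 2.57 (SE 0.67) and Pecam1 by 2.18 (SE 0.64) in Cdkn1b-/-. The hormone-sensing median was -0.027 in Cdkn1b-/- against 0.66 in WT. Pgr differed by 0.51 (SE 0.42), Prlr by 0.47 (SE 0.33) and Foxa1 by 0.53 (SE 0.36) in Cdkn1b-/-. The difference between the genotypes was tested directly as an interaction, and no gene passed (224 at an unadjusted p under 0.05). It was also 0 in DESeq2 (243 unadjusted) and with the block (579 unadjusted). For Pgr this difference, WT minus Cdkn1b-/-, was 1.27 (SE 0.59, adjusted p = 1.00) and for Prlr 1.20 (SE 0.46, adjusted p = 1.00). The progenitor and alveolar list had a median of -0.32 and the milk protein list of -0.14 in Cdkn1b-/-. Elf5 differed by -0.53 (SE 0.29) and Mfge8 by -0.26 (SE 0.28).

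**Figure D5:**
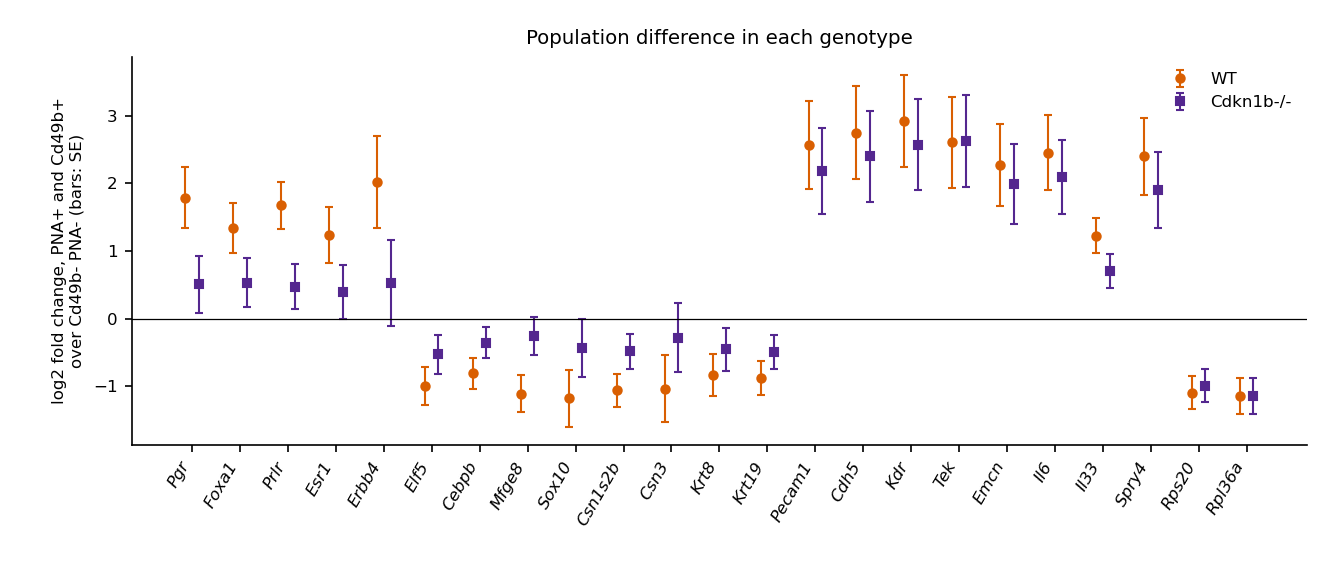
Log2 fold change (PNA+ and Cd49b+ over Cd49b- PNA-) of 23 genes in WT (circles) and Cdkn1b-/- rats (squares), each from 4 against 2 libraries, with bars for the SE. The endothelial genes lie at similar heights in both genotypes, and Pgr, Foxa1 and Prlr lie nearer 0 in Cdkn1b-/-, a difference that did not pass the test.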

How the data were processed

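Libraries had been made by the authors from less than 10 ng of RNA with a SMARTer low-input kit and sequenced with single-end reads. Per the labels and methods, reads were aligned to rn6 with STAR 2.5.1b and assigned with HTSeq on the refGene annotation. The deposited values are raw counts per gene, and the authors did not normalize them. Rows that name no gene (unassigned reads, 54.3% to 70.9% of the total in the 6 compared libraries) were left out of library sizes and tests.

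All 16 libraries of rats aged 9 weeks were fitted together with edgeR 4.0.16 in R 4.3.3 (quasi-likelihood test, TMM, filterByExpr by group) with genotype and population as groups, PNA+ and Cd49b+ libraries forming 1 group, and Benjamini-Hochberg adjustment over 12809 genes. The SE is the log2 fold change over the root of F. CPM are TMM-scaled. Libraries treated as replicates are those the labels number, and where they share a rat p-values measure technical spread. That numbers pair the libraries rests on the data. The number 1 minus number 2 differences correlated between populations in all 12 pairs of populations (r 0.26 to 0.79), and no label says what a number marks. No 2 of the libraries set against each other agreed within sampling noise, by the median chi-square per gene over genes with at least 20 counts. Within a number the 2 WT gates lay closest, at 3.15 for number 1 and 1.94 for number 2. WT pairs with different numbers, within or between these gates or within Cd49b- PNA-, lay between 13.7 and 27.7. The fit counted the 4 PNA+ and Cd49b+ libraries as separate replicates, and their independence was not tested. Summed within each number, they gave 0 calls. The script was tested on simulated data. Genes named in the text are those of the gene lists, Cdkn1b and, per direction, the 15 called genes with the largest fold change, mean log2 CPM above 2 and non-overlapping groups, leaving out symbols beginning LOC, RGD or MGC. Members and lists were chosen with earlier results of these data known, and the ribosomal list, the keratin scale and the examples among list genes after seeing these. Alternatives were size factors, library size alone, filters, DESeq2 1.42.0, a fold threshold, subsets of libraries, summed libraries, the replicate block and leaving out each library. Promoters are RefSeq's (GRCr8). Python 3.11.15 drew the figures. The PR ChIP-seq peaks and the other ages were not used here, and some genes of the lists are not reported here. Counts of 21545344 to 30499866 per library limit the precision of genes at a few CPM.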

Additional observations from a re-analysis of the deposited data

Results flagged for a closer look

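Among the 146 genes named in the report, 3 had 1 of the 4 WT PNA+ and Cd49b+ libraries standing apart from the other 3 by Dixon's test on log2 CPM, a test that marks about 1 group in 20 by chance. Lalba was 2605 CPM in the first Cd49b+ library, against 3441 to 3615 CPM in the other 3. Fabp4 was 477 CPM in the same library, against 373 to 386 CPM. Cd163 was 0.063 CPM, 2 counts, in the second PNA+ library and 0 in the others. The population differences of Lalba and Fabp4 are larger than these gaps.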

How the results depend on the processing

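The count of 1406 called genes (641 higher, 765 lower in the PNA+ and Cd49b+ libraries) moved by more than 1.5 times under most alternatives. DESeq2 called 2542 (1099 higher and 1443 lower), the replicate block 4406 in the 16 libraries (2020 and 2386) and 6653 in the 6 compared libraries alone (2937 and 3716). A minimum of 10 counts in each compared library, which also removes genes that fell to few counts, left 594 (370 and 224), and an absolute log2 fold change above 1 left 1045. Calls of higher level were 1140 with library size alone, 1114 in the 6 compared libraries alone and 1018 in the 8 WT libraries. Summing the libraries of one number, PNA+ alone and Cd49b+ alone each gave 0, where the 2 libraries that make up a group are then all the replicates (2600, 2416 and 2910 genes at an unadjusted p under 0.05). Leaving out 1 library gave 0 to 1145 calls (0 to 584 higher, 0 to 561 lower). With 1 Cd49b- PNA- library left out, the other was assumed to vary like the rest. The keratin scale, added after seeing the data, called 4043 (3557 and 486) and moved the median of all genes to 0.73, and library size alone moved it to 0.17. The cause of these differences was not tested. The genotype difference stayed at 0 calls in the 4 alternatives run. With the replicate block no named gene lost its call or turned sign, and 54 of 146 gained one. On the keratin scale the sign turned for Bcl11a (0.0070), Cd24 (0.67), Cldn23 (0.25), Csn1s2a (0.27), Csn2 (0.39), Cxcl1 (0.046), Cxcl16 (0.18), Cxcl2 (0.0075), Dhrs3 (0.17), Kit (0.58), Krt18 (0.058), Lif (0.16), Muc1 (0.22), Olah (0.078), Ptprc (0.11), Rcan1 (0.22), Sox9 (0.18), St3gal4 (0.38), Stat5a (0.14), Stat5b (0.47), Tfap2c (0.0038), Tnfrsf11a (0.033). With library size alone Cd24 was 0.078, with size factors Cdkn1b was -0.0094, in DESeq2 -0.0100, and with PNA+ alone Krt14 was -0.38. Leaving out 1 library turned the sign of Cd24 (-0.26 to 0.0034), Cdkn1b (-0.20 to 0.44), Chi3l1 (-1.72 to 0.38), Csn1s1 (-1.40 to 0.56), Csn1s2a (-1.39 to 4.90), Csn2 (-1.20 to 2.58), Kit (-0.79 to 0.82), Lcn2 (-2.19 to 2.89), Rcan1 (-1.0 to 0.035), Rspo1 (-2.45 to 2.12), Stat5a (-1.01 to 0.054), Tnfrsf11a (-1.27 to 0.056), given as the range over the 6 libraries left out. The median of the endothelial list ranged from 2.06 to 2.54 over 18 alternatives, the keratin scale aside, of the hormone-sensing list from 0.21 to 0.91, of the progenitor list from -0.78 to -0.25 and of the milk list from -1.04 to -0.40. Genes at a few CPM, and 2 libraries in 1 group, limit the rest.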

Other observations

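The PNA+ and Cd49b+ libraries of WT rats, which were 1 group in the comparison, were not identical, and their difference was not tested. Krt5, a basal keratin, was 27.2 and 17.6 CPM in the PNA+ libraries and 103 and 64.7 CPM in the Cd49b+ libraries, against a basal mean of 2406 CPM. Col17a1, a hemidesmosome collagen, was 15.5 and 16.7 CPM against 71.5 and 78.7 CPM, with a basal mean of 1738 CPM. Pgr, Foxa1 and Esr1 were lower in the Cd49b+ than in the PNA+ library of the same number in both numbers. For Esr1 the values were 21.4 and 20.2 CPM in PNA+ and 17.5 and 14.3 CPM in Cd49b+.

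Some genes outside the milk proteins also followed the library number. Thrsp, a regulator of fatty acid synthesis in the mammary gland, was 917 and 134 CPM (PNA+), 759.6 and 137 CPM (Cd49b+) and 1718 and 279 CPM (Cd49b- PNA-), so that every number 1 library was above every number 2 library. Slc6a14, an amino acid transporter, was 15 and 103 CPM (PNA+), 16.4 and 95.3 CPM (Cd49b+) and 8.81 and 18.2 CPM (Cd49b- PNA-), with both number 2 libraries of the PNA+ and Cd49b+ cells above the other 4. Hspa1a, an inducible heat shock gene, differed both by number and by surface marks, at 3623 and 2341 CPM (PNA+), 3831 and 2289.7 CPM (Cd49b+) and 7718 and 4252 CPM (Cd49b- PNA-). In each gate its number 1 library was above its number 2 library. Both Cd49b- PNA- libraries lay above all PNA+ and Cd49b+ libraries, and with the block Hspa1a was called lower in the PNA+ and Cd49b+ libraries.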
